A study of Mus musculus with 38 samples.

Results

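In naive mouse embryonic stem cells (mESCs), 1348 of 78202 genes carried LAP2B CUT&RUN signal that lay on one side of wild type (WT) when the lamin B receptor was lost and on the other side when the lamins were lost. They fall into 2 sets. The 1156 LBRKO-high genes had more LAP2B than WT in LBR knockout cells (LBRKO) and less in lamin triple-knockout cells (TKO). The 192 TKO-high genes had less in LBRKO and more in TKO. The members were chosen by their naive LAP2B values in WT, LBRKO and TKO. A gene was kept when its naive WT mean was over 1, all 3 LBRKO libraries lay on one side of all 3 WT libraries, all 3 TKO libraries lay on the other side, and both group means were at least 1.2-fold from the WT mean. Olfactory receptor, vomeronasal receptor and Pramel genes were dropped by symbol, which removed 1 gene. All values are on the relative scale, in which the signal of a gene is divided by that of the median gene of the same library. Of 37835 genes with a WT mean over 1, the LBRKO-high genes made up 3.06% and the TKO-high genes 0.507%, or 1.48% and 0.246% of all genes. For comparison, 6006 genes met the same limits on the higher side in both lines and 9588 on the lower side in both.

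CUT&RUN uses an antibody to tether a nuclease to a chromatin protein, so that DNA next to the protein is released and sequenced. LAP2B was mapped in WT, LBRKO, TKO and quadruple-knockout (QKO; lamins and LBR) cells, each as naive mESCs in 2i and LIF and as epiblast-like cells (EpiLCs) in FGF and Activin A, with 3 libraries in each of 8 groups. Lamin B1 (LMNB1) and a background control (IGG) were mapped in WT cells of both stages only, with 3 libraries per group. Cells were collected after 48 h, with 200000 cells per library. The lines limit what the genotypes stand for. Per the study's methods, TKO cells and a littermate WT line came from another laboratory, LBRKO cells were made from the WT line by frameshift indels, and QKO was a single clone made from TKO cells. Karyotyping found an additional chromosome 8 in TKO cells, with loss of the Y chromosome in a part of them, and WT cultures held populations without Y or with additional chromosomes 6 and 8. Errors and p-values therefore reflect libraries and not clones, and nothing states that the libraries of a group came from separate cultures. CUT&RUN reads come from DNA, so they test neither the loss of the deleted gene products nor the expression of stage markers.

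The lamins form a meshwork under the inner nuclear membrane, and LBR is a membrane protein that binds both B-type lamins and heterochromatin. Chromatin held at this surface forms lamina-associated domains, which are mostly poor in active genes. LAP2B, a product of Tmpo, sits in the same membrane and serves as a marker of chromatin at the nuclear periphery when the lamins themselves are absent. The study did not read LAP2B as contact with the lamina after the change to EpiLCs, so values of that stage are given as LAP2B signal alone.

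Reads over genes numbered 12608484 to 41198406 per LAP2B library, 29522895 to 37189077 per LMNB1 library and 12028659 to 45689196 per IGG library, counted once for every gene whose bins hold the read. A member had a median of 235 to 1288 reads in a LAP2B library, and the fewest reads of any member in any LAP2B library were 6. Replicates correlated at 0.968 or more across genes, and their reads differed by more than counting error in all 36 pairs (chi-square per degree of freedom 3.37 to 12.6). No library was a copy of another.

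Genes from the leading loci of both sets are shown with the 250 bases upstream of their annotated start (GRCm39 with GENCODE M39 starts), printed 5′ to 3′ on the strand of the gene with CG dinucleotides in capitals, because they anchor the loci described below. The windows are those of Ipo8 (chr6:148733093-148733342, minus strand), Gramd1a (chr7:30855393-30855642, minus) and Kbtbd3 (chr9:4309465-4309714, plus).
Ipo8: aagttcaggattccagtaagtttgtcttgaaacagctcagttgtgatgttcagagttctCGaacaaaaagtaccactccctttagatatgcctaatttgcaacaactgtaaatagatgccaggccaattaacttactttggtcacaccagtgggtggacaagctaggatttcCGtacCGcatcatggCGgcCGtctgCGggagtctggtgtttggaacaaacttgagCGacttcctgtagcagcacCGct
Gramd1a: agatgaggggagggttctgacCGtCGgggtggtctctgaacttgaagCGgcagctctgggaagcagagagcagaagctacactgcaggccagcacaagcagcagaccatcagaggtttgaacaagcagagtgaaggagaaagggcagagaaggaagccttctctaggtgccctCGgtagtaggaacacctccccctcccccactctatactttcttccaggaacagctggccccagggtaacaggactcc
Kbtbd3: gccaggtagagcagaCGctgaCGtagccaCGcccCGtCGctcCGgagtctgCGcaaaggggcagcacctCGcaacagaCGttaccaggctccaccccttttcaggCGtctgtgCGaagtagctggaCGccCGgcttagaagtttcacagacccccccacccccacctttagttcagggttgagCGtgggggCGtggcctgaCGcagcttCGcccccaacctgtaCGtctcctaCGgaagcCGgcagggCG
Ipo8 is an LBRKO-high gene, and Gramd1a and Kbtbd3 are TKO-high genes. The windows held 8, 4 and 21 CG dinucleotides in that order. Of genes with a WT mean over 1, 30.7%, 54.7% and 8.25% held at least as many. The TKO-high genes shown thus had fewer and more CG dinucleotides than Ipo8. Over the same window the median was 5 in LBRKO-high genes, 6 in TKO-high genes and 4 in all genes with a WT mean over 1.

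The LBRKO-high genes lay in runs along the genome. They formed 496 loci (members less than 100 kb apart), of which 283 held a single member, and loci with 2 or more spanned a median of 182 kb. Of these genes, 620 were protein coding and 490 were long non-coding RNA genes. The largest loci held 20 members each, at 126717859 to 127863663 and 148079931 to 149116683 of chromosome 6 and at 149722140 to 150917284 of chromosome 5 (GRCm39). Neighbouring or overlapping genes share 1 kb bins and reads, so the members of a locus are not independent measurements.

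The second of these chromosome 6 loci held Ipo8, a nuclear import receptor, Caprin2, an RNA-binding protein, Tmtc1, a mannosyltransferase of the endoplasmic reticulum, and Dennd5b, an exchange factor for Rab GTPases. Naive LAP2B over Ipo8 (ENSMUSG00000040029; 148672181 to 148733092, minus strand) was 32.7, 39.3 and 32.7 for WT, 112, 78.6 and 92.6 for LBRKO, 18.0, 15.1 and 18.1 for TKO, and 24.5, 20.0 and 20.0 for QKO, in units of the median gene. The lowest LBRKO library was thus above every WT library and the highest TKO library below them. Over the 20 members of this locus the log2 ratio of LBRKO to WT ran from 0.55 to 1.52 and that of TKO to WT from -1.82 to -0.61. These ratios, like all naive LBRKO and TKO values here, chose the members and carry no test.

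Other loci led the LBRKO-high set by the smaller of the 2 absolute ratios of their strongest member, coding or not. Each locus is shown by its strongest named protein-coding gene, which need not be that member. Pds5b, a cohesin-associated protein on chromosome 5, had naive values of 65.4, 83.8 and 58.3 for WT, 159, 106 and 131 for LBRKO, and 37.2, 31.3 and 32.4 for TKO. Cep350, a centrosomal protein on chromosome 1 (155720710 to 155849001, minus strand), had 35.0, 41.3 and 35.5 for WT, 81.3, 58.3 and 64.2 for LBRKO, and 18.2, 19.6 and 18.0 for TKO. In both genes the 3 genotypes were separate, with LBRKO replicate 2 the lowest of its group. Evi5, a Rab GTPase-activating protein, had log2 ratios of 1.01 in LBRKO and -0.80 in TKO, and Zc3h6, a zinc finger protein, had 1.04 and -0.54. The others lay on chromosome 6 and are Frmd4b and Eps8, which act at the cell cortex, Tmcc1, a membrane protein of the endoplasmic reticulum, and Ndufa9 and Mrps35, parts of mitochondrial complex I and of the mitochondrial ribosome. Their log2 ratios were 0.88 to 1.16 in LBRKO and -1.0 to -0.63 in TKO. Over all LBRKO-high genes the log2 ratio ran from 0.26 to 1.75 in LBRKO (median 0.59) and from -1.98 to -0.26 in TKO (median -0.51).

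The TKO-high genes were fewer and more scattered, with 134 loci, 101 of them single genes. They comprised 81 protein-coding and 101 long non-coding RNA genes. The largest locus held 7 members at 36314363 to 36440400 of chromosome 17, in the major histocompatibility complex, and included H2-T9, H2-T10, H2-T13 and H2-T24, which encode class I-like molecules. Near-identical copies in this family, in the Zfp genes of the set (Zfp141, Zfp180, Zfp787, Zfp788, Zfp960, Zfp976 and Zfp977) and between Y-linked genes and their X-linked counterparts can split reads, so these values are uncertain.

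Gramd1a, which encodes an endoplasmic reticulum protein that carries cholesterol from the plasma membrane, represented a locus of 5 members on chromosome 7. Its naive values (30829551 to 30855392, minus strand) were 6.38, 5.61 and 6.96 for WT, 3.03, 4.18 and 3.94 for LBRKO, 11.5, 9.68 and 11.2 for TKO, and 8.53, 6.71 and 7.03 for QKO. Kbtbd3, a BTB-domain protein on chromosome 9 (4309715 to 4332756, plus strand), had 4.90, 5.64 and 5.1 for WT, 2.17, 2.3 and 2.39 for LBRKO, and 8.89, 7.60 and 7.84 for TKO. The order of the genotypes was the reverse of that over Ipo8, with TKO uppermost. The naive QKO libraries of the genes differed: those of Gramd1a reached 6.71 to 8.53, across and above the WT range, and those of Kbtbd3 were 2.91, 3.35 and 4.04, all below WT.

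Other genes shown for the leading TKO-high loci covered a range of levels. Fcor, a corepressor of Foxo1, had naive values of 1.43, 1.36 and 1.04 for WT, 0.750, 0.754 and 0.916 for LBRKO, and 2.43, 2.75 and 2.82 for TKO. Fzd8, a Wnt receptor, had log2 ratios of -0.64 in LBRKO and 1.02 in TKO, and H2-T13 had -0.70 and 0.75. The ribosomal protein gene Rpl15, the ubiquitin ligase adaptor gene Klhl9 and the collagen gene Col5a3, which had 428 to 1452 reads, had log2 ratios of -0.96 to -0.50 in LBRKO and 0.34 to 0.70 in TKO. Reads over Rpl15, Fcor and Klhl9 numbered 37 to 148, 24 to 189 and 48 to 150 in the libraries of this antibody. Over all TKO-high genes the log2 ratio ran from -3.67 to -0.27 in LBRKO (median -0.55) and from 0.26 to 1.58 in TKO (median 0.51). The TKO ratio of Klhl9 (0.34) was below the lower quartile of the set (0.37). A gene shown for a leading locus thus need not be among the strongest members.

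At the edge of the rule, Gm67907 (smaller fold 1.20005) and Paox, a polyamine oxidase (1.20025), were kept as LBRKO-high genes, and the DNA ligase gene Lig3 (1.19983) and Tspan11 (1.19977) were not. A further 333 genes met every limit of the LBRKO-high set except the fold, Lig3 and Tspan11 among them. Leaving out a library drops conditions of the rule, and the count of TKO-high genes was then 204 to 331, with 331 without naive WT replicate 2, 294 without LBRKO replicate 2 and 306 without TKO replicate 2.

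**Figure D1:**
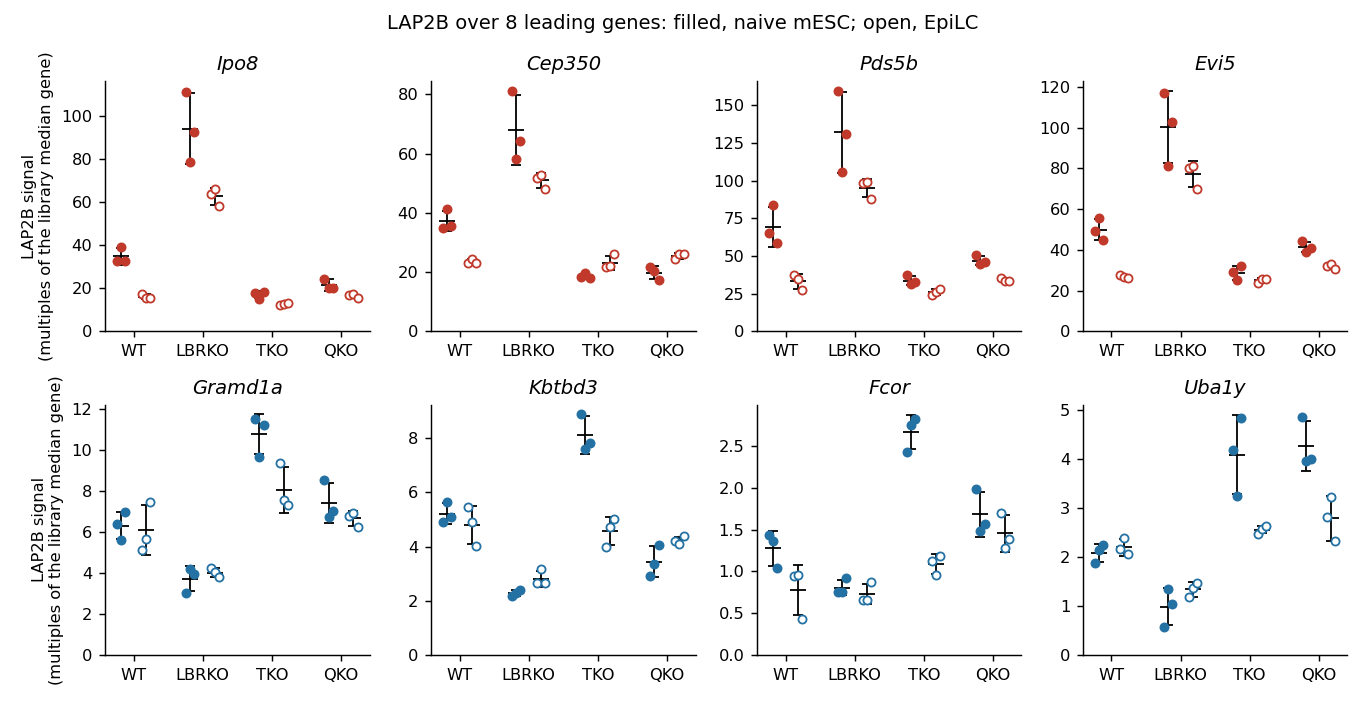
LAP2B signal over 4 LBRKO-high genes (red) and 4 TKO-high genes (blue), in units of the median gene of each library. Points are libraries (filled, naive; open, EpiLC) and bars are mean ± SD of 3 libraries by genotype. In naive cells the LBRKO points lie above WT and the TKO points below for Ipo8, Cep350, Pds5b and Evi5, and the reverse for Gramd1a, Kbtbd3, Fcor and Uba1y, as the rule requires. In EpiLCs the LBRKO points of the red genes stay apart. Their TKO points come nearer to WT than in naive cells, but TKO was called lower than WT at Ipo8 and Pds5b.

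The scale matters to both sets. On the deposited spike-in scale, all naive TKO libraries lay below WT for all 1156 LBRKO-high genes, and all LBRKO libraries lay above WT for 1044 of them. Of the 192 TKO-high genes, 54 had all LBRKO libraries below WT and 5 had all TKO libraries above WT. These are the naive libraries that chose the members, and no share over all genes is given, so the counts are a description. On that scale the median gene itself was 0.60 lower (log2) in naive TKO than in WT, 1.25 lower in QKO and 0.19 higher in LBRKO. More in TKO therefore means more relative to the other genes of the same library, and the spike-in scale gave 1 TKO-high gene and 3379 LBRKO-high genes. Division by the mean in place of the median gave 522 LBRKO-high genes (337 of them shared) and 471 TKO-high genes (114 shared).

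The sets lay at different ends of the chromosomes. Mouse chromosomes other than Y have the centromere at one end, next to the first base of the assembly, whereas the Y assembly begins with the short arm. None of the 1156 LBRKO-high genes lay in the first 10 Mb of a chromosome, whereas 62 of the 192 TKO-high genes (32.3%) did, on 16 chromosomes, against 5.01% of genes with a WT mean over 1. In the last 10 Mb lay 209 LBRKO-high genes (18.1%), 3 TKO-high genes (1.56%) and 9.67% of the genes with a WT mean over 1. Of the genes shown for the 10 leading loci of each set, 0 LBRKO-high and 6 TKO-high genes were in the first 10 Mb, and 3 and 0 were in the last. Outside Y, 4 of the 8 TKO-high genes shown were in the first 10 Mb. With each chromosome cut into 10 parts of equal length, 304 LBRKO-high genes (26.3%) lay in the last part and none in the first, and 64 TKO-high genes (33.3%) lay in the first. The 5 TKO-high genes on the Y chromosome were all within its first 10 Mb, and without them 57 of 187 (30.5%) lay in the first 10 Mb, on 15 chromosomes, against 4.94% of genes with a WT mean over 1. Position was not part of the rule, but the naive values that chose the members also follow position, so these shares describe the sets and carry no test.

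**Figure D2:**
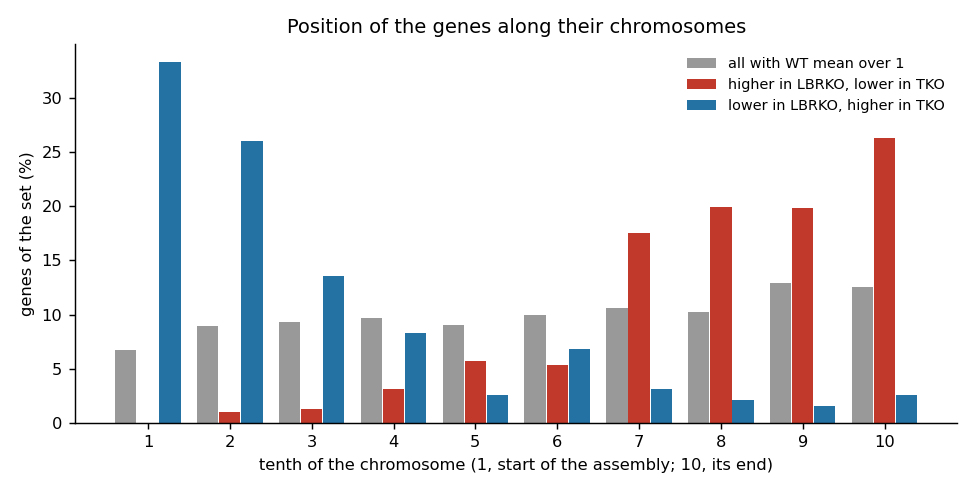
Share of each set in each of 10 equal parts of chromosome length, counted from the start of the assembly (the centromere end except on Y), for LBRKO-high genes, TKO-high genes and all genes with a WT mean over 1. LBRKO-high genes reach 26.3% in the last part, and TKO-high genes hold 33.3% in the first and 26% in the second.

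The same slope was present in genes outside the sets. Over non-member genes with a WT mean over 1, the median log2 signal per 1 kb bin of 1797 genes in the first 10 Mb minus that of 3423 genes in the last 10 Mb, outside the Y chromosome, was 0.10, 0.23 and 0.07 in the naive WT libraries. It was -0.65, -0.56 and -0.61 in naive LBRKO and -0.57, -0.42 and -0.51 in QKO, and 0.14, -0.0002 and 0.13 in TKO. Both lines without LBR thus carried less LAP2B near centromeres than near chromosome ends, and the naive TKO libraries overlapped WT. In EpiLCs the WT libraries stood at 0.01, -0.06 and -0.12, the LBRKO libraries at -0.42, -0.42 and -0.40, the TKO libraries at -0.21, -0.20 and -0.15, and the QKO libraries at -0.29, -0.31 and -0.26. No genotype overlapped another at that stage, and LBRKO was 0.22 below TKO. This measure was chosen after the pattern was seen, so its values carry no test.

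Chromosome 6 held 197 of the LBRKO-high genes (17.0%) and none of the TKO-high genes, against 5.73% of genes with a WT mean over 1. The median gene of this whole chromosome stood 0.40 (log2) above WT in naive LBRKO and 0.41 in EpiLC LBRKO, and at -0.32 and -0.17 in TKO. Dividing each gene by the median of its own chromosome left 65 LBRKO-high genes on chromosome 6 and 1054 in all, 720 of them shared with the 1156. In the same way 198 TKO-high genes were found, 106 of them shared, and 17 of them lay on chromosome 6. IGG was not mapped in the mutants, so a difference in chromosome copy number and a difference in LAP2B contact cannot be told apart for a whole chromosome. Chromosome 7 held 41 TKO-high genes (21.4%), chromosome 17 held 18 (9.38%) and the Y chromosome held 5 (2.6%), against 6.74%, 4.12% and 0.669% of genes with a WT mean over 1.

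The Y-linked genes Uba1y, a ubiquitin-activating enzyme, and Ddx3y, an RNA helicase, were among the genes shown for the leading TKO-high loci. Uba1y had naive values of 1.89, 2.14 and 2.25 for WT, 0.577, 1.34 and 1.05 for LBRKO, and 4.18, 3.25 and 4.85 for TKO. Ddx3y had log2 ratios of -0.72 in LBRKO and 0.83 in TKO. The median Y-linked gene stood at -0.83 in naive LBRKO and -0.53 in EpiLC LBRKO, and at -0.63 and -0.18 in TKO, on the other side of WT from the naive TKO ratios of Uba1y (0.97) and Ddx3y. The share of cells that had lost the Y chromosome in each line was not tested.

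**Figure D3:**
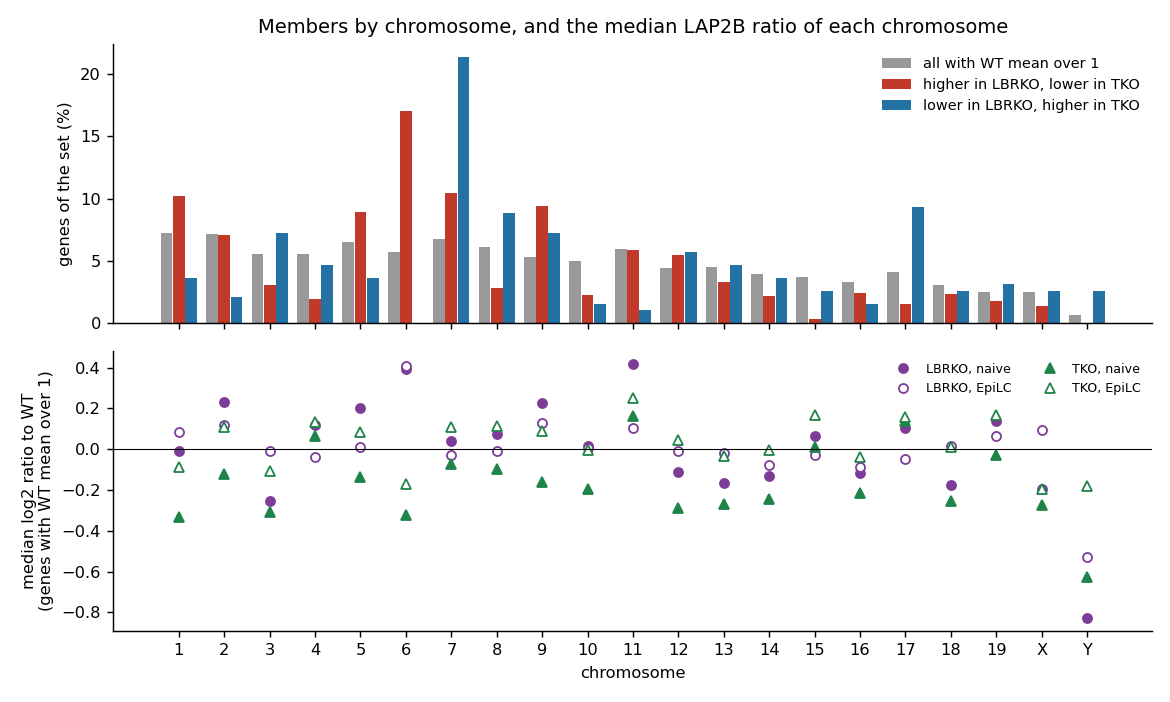
Top, share of the LBRKO-high genes, of the TKO-high genes and of all genes with a WT mean over 1 on each chromosome. Bottom, median log2 ratio to WT of the genes with a WT mean over 1 on each chromosome, for LBRKO and TKO at both stages. Chromosome 6 holds 17.0% of the LBRKO-high genes, and its median is 0.40 in naive LBRKO and -0.32 in naive TKO.

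LMNB1, which the rule did not use, was higher over LBRKO-high genes than over the median gene in naive WT cells. In naive WT cells the median LMNB1 signal per 1 kb bin was 1.35 ± 0.086 over LBRKO-high genes and 1.17 ± 0.033 over TKO-high genes (SD, n = 3), against 1.12 over genes with a WT mean over 1. IGG over the same genes was 1.04 and 1.09, against 1.02. Ranked by naive LMNB1 per bin and parted into 4 classes of equal size, 3.72% of LBRKO-high genes fell in the lowest class, 27.2% in the next, then 41.9%, and 27.2% in the highest, while TKO-high genes were spread at 20.8%, 25.5%, 27.1% and 26.6%. For comparison, 47.6% of the genes lower in both lines lay in the highest class and 52.5% of those higher in both lay in the lowest. The median LBRKO-high gene was 36.8 kb long with 43.8% GC, and the median TKO-high gene 17.0 kb with 45.0%, against 18.2 kb and 44.2%.

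LMNB1 over LBRKO-high genes was lower in EpiLCs than in naive mESCs. The median per bin of the 3 EpiLC WT libraries was 1.03, 1.08 and 1.02, against 1.44, 1.28 and 1.31 in naive cells, so the libraries of the stages did not overlap. Over genes lower in both lines the mean went from 1.68 in naive cells to 1.40 in EpiLCs, with libraries of the stages overlapping. Over genes higher in both it went from 0.69 to 0.86. A lower mean in EpiLCs was thus not particular to LBRKO-high genes. By limma over the 6 LMNB1 libraries, 438 LBRKO-high genes (37.9%) fell and 6 rose (adjusted p under 0.05), with a median log2 difference of -0.35. Of all genes tested 7.17% fell and 6.31% rose (median -0.05), and of genes with a WT mean over 1 the shares were 11.6% and 9.07%. Of TKO-high genes, 22 (11.5%) fell and 10 rose (median -0.06). Over Ipo8, LMNB1 fell by 1.1 (log2; adjusted p = 4.57e-05). The count of 438 was 190 without EpiLC replicate 1, 216 without EpiLC replicate 3 and 277 without naive replicate 3, and it was 81 with no filter on low values and 286 with the replicate number as a block. The count of 22 was 5 with no filter, 12 with the block, and 6, 8 and 11 without the same replicates. On the spike-in scale, where the median gene was 0.30 higher in EpiLCs, 34 LBRKO-high genes fell and 9 rose (median -0.06), and 2 TKO-high genes fell and 11 rose (median 0.23). On the mean scale the counts were 287 and 40, and 10 and 14. No share over all genes is given beside the counts on these scales. WT LAP2B per bin was 1.31 and 0.984 over LBRKO-high genes in naive cells and EpiLCs, and 1.12 and 1.05 over TKO-high genes.

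**Figure D4:**
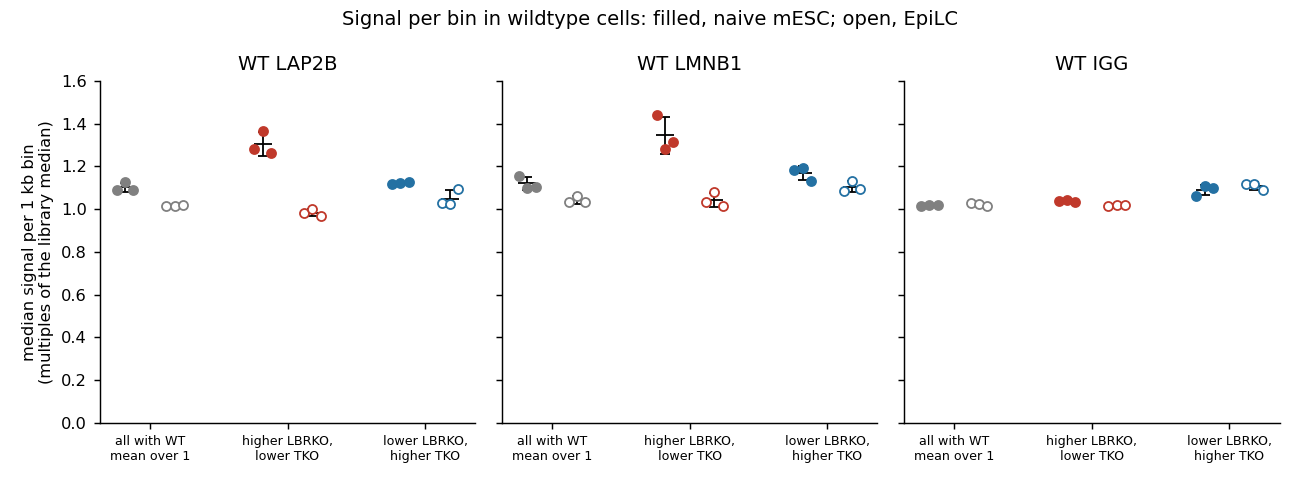
Median signal per 1 kb bin in WT cells over LBRKO-high genes, TKO-high genes and all genes with a WT mean over 1, for LAP2B, LMNB1 and IGG. Each point is a library. LMNB1 over LBRKO-high genes runs from 1.28 to 1.44 in naive cells and from 1.02 to 1.08 in EpiLCs.

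Naive QKO cells, which lack the lamins and LBR together, shared their WT libraries with the rule, so their values are a description. All 3 QKO libraries lay below all 3 WT libraries at 777 LBRKO-high genes (67.2%) and above them at 69, where 39.7% of all genes lay below and 30.5% above, and 49.5% and 34.5% of genes with a WT mean over 1. At TKO-high genes QKO lay above WT at 92 (47.9%) and below it at 37. The median log2 ratio of QKO to WT was -0.45 over LBRKO-high genes, beside -0.51 in TKO and 0.59 in LBRKO, and over genes with a WT mean over 1 it was -0.36, beside -0.17 and 0.06. Over TKO-high genes it was 0.24, beside 0.51 in TKO and -0.55 in LBRKO. The QKO median of LBRKO-high genes was thus near that of the genes with a WT mean over 1.

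The EpiLC libraries played no part in choosing the members, and they allow tests by limma over the 12 EpiLC LAP2B libraries. All 1348 members passed the filter on low values. LAP2B was higher in LBRKO than in TKO EpiLCs at 940 of the 1156 LBRKO-high genes (81.3%; adjusted p under 0.05) and lower at 0, where 992 had an unadjusted p under 0.05 in either direction. Of all genes tested 16.6% were called higher and 15.5% lower, and of genes with a WT mean over 1 the shares were 24.8% and 21.4%. The median log2 difference over LBRKO-high genes was 0.66, against -0.04 over all genes tested. These calls fell in 400 of the 496 loci. By edgeR on the recovered reads, 967 LBRKO-high genes were called higher, with no share over all genes given for that method.

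The difference between LBRKO and TKO at LBRKO-high genes lay on the LBRKO side. In EpiLCs, 982 of them (84.9%) were higher in LBRKO than in WT and 0 were lower (median 0.65), where 16.1% of all genes tested were higher and 13.0% lower (median 0.01). By edgeR, 963 were higher and 1 was lower, again with no share over all genes given. Between TKO and WT, 96 rose and 150 fell (8.30% and 13.0%; median 0.00), both at or below the shares over all genes tested of 13.7% and 13.2% (median 0.05) and those of 20.5% and 19.4% over genes with a WT mean over 1. The count of 96 was 58 without TKO replicate 2 or TKO replicate 3, and the count of 150 was 91 without TKO replicate 1. On chromosome 6, 0 rose and 53 fell, where the median gene with a WT mean over 1 stood at -0.17 in TKO. Outside chromosomes 6 and 8, where the set held 926 genes, 88 rose and 91 fell. Of these 926 genes, 728 were higher in LBRKO than in TKO and 775 were higher in LBRKO than in WT. Shares over all genes of these parts were not computed. These contrasts share libraries and are not independent of each other. In EpiLC WT cells LAP2B per bin over LBRKO-high genes was 0.984, beside 1.02 for IGG, and in naive WT it was 1.31. TKO minus WT thus started from near the median gene. Its small values do not show that lamin loss had no effect there.

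Ipo8 shows the LBRKO side of this pattern, but it was also lower in TKO than in WT. In EpiLCs its LAP2B values were 17.3, 15.3 and 15.3 for WT, 63.9, 66.2 and 58.5 for LBRKO, 12.3, 12.8 and 13.2 for TKO, and 16.9, 17.4 and 15.6 for QKO. The LBRKO libraries stood far above the others, the TKO libraries were the lowest, and QKO overlapped WT. LBRKO minus WT was 1.97 on the log2 scale (SE 0.080, adjusted p = 1.06e-24), and TKO minus WT was -0.32 (adjusted p = 0.00225). In its locus all 20 members were called higher in LBRKO than in WT, by 0.99 to 2.13. Cep350 had 23.0, 24.5 and 23.1 for WT, 51.9, 52.9 and 48.2 for LBRKO, and 21.6, 21.9 and 25.9 for TKO, so that TKO overlapped WT. Its LBRKO minus WT difference was 1.11 (SE 0.077, adjusted p = 1.55e-16), and its TKO minus WT difference was -0.03 (adjusted p = 0.83).

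All 10 genes shown for the leading LBRKO-high loci were higher in EpiLC LBRKO than in WT. Of these, 4 were lower in TKO than in WT (Pds5b, Frmd4b, Eps8 and Ipo8). The smallest adjusted p of LBRKO minus TKO among protein-coding LBRKO-high genes belonged to Dennd5b, Tmtc1, Bicd1, Ipo8 and Caprin2. Genes with Gm or Rik symbols were not ranked. Bicd1 links dynein to its cargo. All of these named genes lay within the last few megabases of chromosome 6. Their LBRKO minus TKO differences were 2.42, 2.04, 2.23, 2.29 and 2.41 in that order. Dennd5b had EpiLC values of 34.2, 35.3 and 28.7 for WT, 145, 150 and 135 for LBRKO, 25.8, 26.7 and 27.6 for TKO, and 47.5, 47.5 and 40.5 for QKO. Its QKO libraries, unlike its TKO libraries, were all above WT.

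The TKO-high genes too differed between LBRKO and TKO. LAP2B was lower in LBRKO than in TKO EpiLCs at 126 of 192 (65.6%) and higher at 2, with a median of -0.51, where 15.5% of all genes tested were lower and 16.6% higher and 21.4% and 24.8% of genes with a WT mean over 1. The 126 fell in 88 of the 134 loci. By edgeR 121 were called lower, with no share over all genes given for that method. The 2 higher ones were Gm42944 on chromosome 3 (0.64, SE 0.18, adjusted p = 0.00511) and the long non-coding RNA gene Gm63830 on chromosome 8 (0.27, SE 0.094, adjusted p = 0.0246), named after their values were seen. Of the 62 members in the first 10 Mb 46 were lower in LBRKO (41 of 57 without the Y chromosome), and of the other 130 members 80 were. The share over all genes of these parts was not computed. In non-member genes the first minus last 10 Mb difference was also lower in LBRKO (mean -0.41) than in TKO (-0.19). Nothing is read from the counts about position. Against WT, 86 (44.8%) were lower in LBRKO and 0 higher (median -0.33), where 13.0% of all genes tested and 17.7% of genes with a WT mean over 1 were lower. In TKO, 44 (22.9%) were higher than WT and 6 lower (median 0.15), beside 13.7% and 13.2% of all genes tested (median 0.05) and 20.5% and 19.4% of genes with a WT mean over 1 (median 0.04). The count of 44 was 28 without WT replicate 1.

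Genes of the TKO-high set differed in which side held. Gramd1a had EpiLC values of 5.12, 5.68 and 7.45 for WT, 4.23, 4.05 and 3.79 for LBRKO, 9.35, 7.56 and 7.30 for TKO, and 6.80, 6.95 and 6.26 for QKO. LBRKO lay below every WT library, and TKO replicate 3 overlapped the highest WT library. LBRKO minus WT was -0.56 (SE 0.12, adjusted p = 0.000227) and TKO minus WT was 0.41 (adjusted p = 0.00909), so both sides held. Kbtbd3 had 5.45, 4.90 and 4.04 for WT, 2.65, 3.16 and 2.64 for LBRKO, and 3.98, 4.73 and 5.01 for TKO, and fell in LBRKO (-0.74, SE 0.13, adjusted p = 1.48e-05), with TKO minus WT at -0.06 (adjusted p = 0.768). The TKO and WT libraries of Kbtbd3 overlapped.

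H2-T13 held on the other side. Its EpiLC values were 2.40, 1.58 and 2.25 for WT, 2.68, 2.23 and 2.27 for LBRKO, 4.13, 4.00 and 3.82 for TKO, and 3.7, 3.82 and 3.46 for QKO. Both lines without lamins were above WT, and LBRKO overlapped it. TKO minus WT was 0.92 (SE 0.15, adjusted p = 6.35e-06) and LBRKO minus WT was 0.21 (adjusted p = 0.316). Among the 7 members of its locus 3 were called different between TKO and WT (range -0.05 to 1.03), and 6 were lower in LBRKO than in TKO. Ahnak, a large scaffold protein on chromosome 19, was higher in TKO than in WT by 0.39 (adjusted p = 0.000302), with LBRKO minus WT at -0.17 (adjusted p = 0.116). Of the 10 genes shown for the leading TKO-high loci, 4 were lower in LBRKO than in WT (Gramd1a, Kbtbd3, Uba1y and Ddx3y). In TKO, 3 were higher than in WT (H2-T13, Gramd1a and Col5a3). Rpl15, Klhl9 and Fcor passed neither, nor LBRKO against TKO (adjusted p = 0.446, 0.48 and 0.0925).

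The smallest adjusted p of LBRKO minus TKO was ranked among protein-coding TKO-high genes only, without Gm and Rik symbols. Long non-coding RNA genes, which reached -2.26 in this contrast, were not ranked. Beside Gramd1a and Ahnak, the ranking named Arhgef4, Retreg1 and Ccdc61. These encode a guanine nucleotide exchange factor, a receptor for the autophagy of the endoplasmic reticulum and a centriolar protein. Their LBRKO minus TKO differences were -0.60, -0.59 and -0.85. Retreg1 had EpiLC values of 26.9, 27.8 and 26.2 for WT, 18.9, 19.0 and 22.1 for LBRKO, and 29.2, 29.2 and 31.8 for TKO, with no overlap between these genotypes. Its TKO minus WT difference of 0.16 did not pass the test (adjusted p = 0.131).

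**Figure D5:**
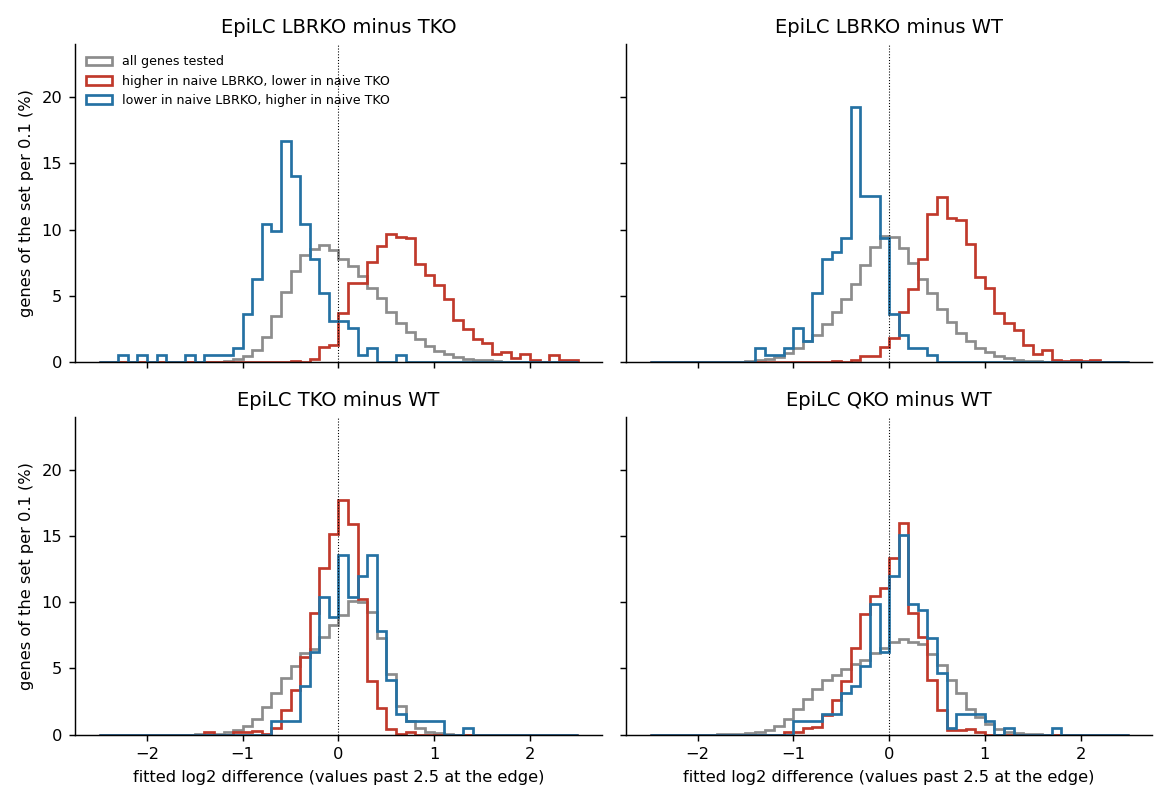
Distribution of EpiLC LAP2B log2 differences over all genes tested, LBRKO-high genes and TKO-high genes, as the share of each set in steps of 0.1, for LBRKO minus TKO, LBRKO minus WT, TKO minus WT and QKO minus WT. LBRKO-high genes center on 0.66 and 0.65 in the contrasts with LBRKO and on 0.00 and 0.03 in TKO and QKO, and TKO-high genes on -0.51, -0.33, 0.15 and 0.13.

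The EpiLC directions were also read on the other scales, where no share over all genes is given beside the counts. On the spike-in scale, where the median gene stood 0.01 above WT in EpiLC LBRKO, 0.25 below in TKO and 0.91 below in QKO, LBRKO-high genes were higher in LBRKO than in TKO at 894 and than in WT at 557, with 0 lower in either. TKO-high genes were lower in LBRKO than in TKO at 12 and higher at 1, and their median for TKO minus WT turned to -0.12. TKO minus WT over LBRKO-high genes gave 0 higher and 55 lower on the spike-in scale and 221 and 95 on the mean scale. The median gene in TKO stood 0.25 below WT on the first scale and 0.08 above on the second. These counts are therefore not read as a trait of the set. Against the median of their own chromosome, 832 LBRKO-high genes were higher in LBRKO than in TKO and 4 lower, and 101 TKO-high genes were lower and 4 higher.

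In QKO EpiLCs both sets held calls in both directions. Of LBRKO-high genes 188 were higher than in WT and 196 lower (median 0.03). Of all genes tested 21.7% and 20.5% were called (median 0.03), and of genes with a WT mean over 1 28.2% and 28.7%. On the spike-in scale 0 were higher and 978 lower, and on the mean scale 358 and 120. The median gene itself stood 0.91 below WT on the spike-in scale and 0.11 above on the mean scale. These counts have no share over all genes beside them and are not read as a trait of the set. Outside chromosomes 6 and 8 the counts on the relative scale were 173 and 99. Of TKO-high genes 46 were higher and 20 lower (median 0.13), and on the spike-in scale 1 was higher and 130 lower. The median LAP2B per bin over LBRKO-high genes in EpiLCs was 1.59 in LBRKO, 0.990 in TKO and 1.04 in QKO, beside 0.984 in WT. In naive cells it was 2.13, 0.944 and 1.15, beside 1.31. On the relative scale the LBRKO level was thus the one that stood apart from WT in EpiLCs. This holds for the relative scale only, because on the spike-in scale the median gene itself stood 0.91 below WT in QKO.

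Few members belonged to the gene lists examined. None of the 20 naive pluripotency genes and none of the 19 measured primed epiblast genes was a member, but 16 and 13 of them had a WT mean over 1, and at the shares of 3.06% and 0.507% over such genes lists of this size could well hold no member. In the nuclear envelope list (27 genes) the member was Tor1aip1, which encodes the lamin-binding membrane protein LAP1. In the H3K9 methylation list (19 genes) the members were Setdb2, a histone methyltransferase, and Zfp644, a partner of such enzymes. All 3 were LBRKO-high. The sterol synthesis list (24 genes) held the TKO-high gene Idi1, an isomerase of the mevalonate pathway. In EpiLCs, LBRKO against TKO was called higher at 4 and lower at 6 naive pluripotency genes, 0 and 4 primed epiblast genes, 7 and 8 nuclear envelope genes, 6 and 6 H3K9 methylation genes, 3 and 6 of 18 endoderm genes, and 4 and 9 sterol synthesis genes. These counts stand beside 16.6% higher and 15.5% lower over all genes tested and 24.8% and 21.4% over genes with a WT mean over 1, and nothing is read from them about the lists.

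Tor1aip1 had naive values of 7.26, 8.98 and 7.02 for WT, 21.5, 15.2 and 19.9 for LBRKO, and 5.86, 6.35 and 4.97 for TKO. Its EpiLC values were 5.13, 5.55 and 5.14 for WT, 13.2, 12.7 and 10.8 for LBRKO, and 6.52, 7.29 and 7.09 for TKO. Here both mutants lay above WT in EpiLCs, LBRKO by 1.19 (SE 0.10, adjusted p = 3.2e-13) and TKO by 0.39 (adjusted p = 0.00369). Setdb2 and Zfp644 were higher in EpiLC LBRKO than in WT by 0.94 and 0.64 (adjusted p = 3.45e-10 and 2.65e-08), with TKO minus WT at -0.13 and 0.11 (adjusted p = 0.387 and 0.353). Idi1 had EpiLC values of 2.18, 1.77 and 1.79 for WT, 1.34, 1.36 and 1.79 for LBRKO, and 2.24, 1.69 and 1.87 for TKO, which overlapped, and LBRKO minus TKO was -0.35 (adjusted p = 0.135).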

How the data were processed

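As their methods state, the authors mapped reads to GRCm39 (mm39) with Bowtie2 2.3.5.1, kept proper primary pairs with SAMtools 1.10, removed duplicates, and computed RPKM coverage signal with deepTools, scaled by yeast (sacCer3) spike-in. The deposited signal of a gene was taken from its values to be the sum over the 1 kb bins it touches, so long genes have larger values. Genes within 1 shared bin had equal values (within 0.0001 in 343 of 343 sets), which does not tell a sum from a mean. Gene values were whole multiples of 1 read in each library (100% within 0.05 of a step), which values divided by gene length would not be. Each library was divided here by its median gene.

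EpiLC LAP2B (12 libraries) and LMNB1 (6 libraries) were tested in separate fits with limma 3.58.1 (R 4.3.3; eBayes with trend, two-sided) on log2(relative value + 0.1 of the table median), which understates changes of low genes. The 10% of genes with the lowest means were left out, with Benjamini-Hochberg adjustment across 70381 genes. edgeR 4.0.16 on recovered reads was an alternative. The scripts were tested on simulated data. Python 3.11.15, numpy 2.4.6, pandas 2.3.3, scipy 1.17.1 and matplotlib 3.10.9 were used. Symbols came from the table or GENCODE M39.

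Members and lists were chosen with earlier results of these data known. The genes named were the strongest protein-coding member of each of the 10 leading loci per set, genes beside the threshold, and list members. To these were added the 5 protein-coding members per set with the smallest adjusted p of EpiLC LBRKO minus TKO. Gm and Rik symbols were left out of the choices by locus and by p. Loci were ranked by their strongest member of any type, and loci with no such protein-coding gene were skipped. Same-numbered EpiLC replicates did not deviate together (r -0.081 to 0.055 in 18 pairs), so no block was used. The 2 H3K9me3 samples were not analysed here. A named gene and an upstream sequence are not reported here.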

Additional observations from a re-analysis of the deposited data

Results flagged for a closer look

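Only members named by locus, p, threshold or list were searched, in LBRKO, TKO and QKO, and 7 instances were found. In each, all 3 mutant libraries lay on one side of the same-stage WT libraries in naive cells and on the other in EpiLCs. No share over all genes was computed, so nothing is read from the count. The difference between the stages was not tested in any instance. In TKO, the log2 ratio of means to WT was -0.44 in naive cells and 0.40 in EpiLCs over Tor1aip1 and -0.26 and 0.13 over Paox. The TKO-high genes Klhl9 and Ddx3y went the other way, from 0.34 to -0.24 and from 0.83 to -0.23. In QKO, it was -0.20 and 0.32 over Zc3h6, -0.27 and 0.24 over Evi5, and -0.39 and 0.28 over Caprin2. The naive TKO values of these genes were used in choosing them.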

How the results depend on the processing

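Counts are given as LBRKO-high, then TKO-high genes, and the cause of a shift was not tested unless the setting itself gives it. The rule gave 1156 and 192 genes, 3379 and 1 on the spike-in scale, 522 and 471 on the mean scale and 213 and 41 at 1.5-fold, and 1098 to 1520 and 204 to 331 with one library left out. EpiLC LBRKO minus TKO (940 higher, 126 lower) gave 12 TKO-high calls on the spike-in scale and 891 to 918 and 109 to 119 with one library left out. LBRKO minus WT (982 higher, 86 lower) gave 557 and 16 on the spike-in scale and 912 to 964 and 71 to 83. TKO minus WT over LBRKO-high genes gave 0 higher and 55 lower on the spike-in scale, 221 and 95 on the mean scale, 46 and 99 with all 24 LAP2B libraries in 1 fit, 98 lower with each chromosome's own median, 91 lower without chromosomes 6 and 8 (chosen after seeing the data) and 58 to 137 and 91 to 173 with one library left out, beside 96 and 150. Over TKO-high genes its 44 higher calls were 3 on the spike-in scale and 28 to 50. QKO minus WT over LBRKO-high genes (188 and 196) gave 0 higher and 978 lower on the spike-in scale, 358 and 120 on the mean scale, 128 lower by chromosome, 99 lower without chromosomes 6 and 8, and 144 to 219 and 157 to 216. Over TKO-high genes (46 and 20) it gave 1 and 130 on the spike-in scale, 73 higher on the mean scale, and 36 to 51 and 18 to 23. LMNB1 calls of a fall (438 and 22) were 81 and 5 with no filter on low values, 34 and 2 on the spike-in scale, 287 and 10 on the mean scale, 286 and 12 with the replicate number as a block, and 190 to 485 and 6 to 25. Blocking on the replicate number gave 940, 126, 981 and 84 EpiLC calls in the order above and moved no EpiLC count by over 1.5 times. Naive LMNB1 per bin over the sets (1.35 and 1.17) was 0.462 and 0.403 on the spike-in scale, 9.40 and 3.66 not divided by bins, 1.52 and 1.47 as means over genes, and 1.30 to 1.38 and 1.16 to 1.19 with one library left out. IGG (1.04 and 1.09) was 0.111 and 0.117, 7.32 and 3.47, 1.08 and 1.26, and 1.03 to 1.04 and 1.08 to 1.103. Among the named genes, Arhgef4 TKO minus WT changed sign on the spike-in scale (-0.030), and 18, 12 and 34 values lost their call in LBRKO minus TKO, LBRKO minus WT and TKO minus WT. Low read numbers limit the short TKO-high genes.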
